A study of Mus musculus with 17 samples.

Results

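Small RNA sequencing of the mouse embryonic stem cell (ESC) lines D3 and B8 was examined for the blood-cell microRNAs (miRNAs) miR-142a, miR-144, miR-451a and miR-223. All rows of the miRNA table with these names, on either arm of the hairpin, were taken, which gave 6 of 1033 rows. They were miR-142a-5p, miR-142a-3p, miR-144-5p, miR-144-3p, miR-451a and miR-223-3p. The rule used names and no levels, and it was set with earlier results of these data known. ESCs of both lines at day 0 were undifferentiated and grown with the cytokine LIF, without feeder cells and with serum. At day 7 the cells had aggregated in hanging drops as embryoid bodies, and by day 21 these bodies had grown out. The later stages were kept without LIF, with retinoic acid, N2 and the insulin, transferrin and selenium mix ITS. Values were used for 14 libraries: D3 at day 0 (n = 3), at day 7 (n = 2) and at day 21 (n = 3), B8 at day 7 (n = 3) and B8 at day 0 (n = 3). B8 outgrowths of day 21 (3 labelled samples) are not analysed here. Neither the origin of the replicates (cultures or aliquots) nor the clonality of the lines is given in the labels, so the p-values speak only of the variation among these libraries, and that variation may be technical.

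A miRNA is cut from a hairpin precursor and guides the silencing of messenger RNAs that pair with its seed, the bases near its 5′ end. miR-142 is made in nearly all blood lineages and is widely used as a mark of haematopoietic cells. miR-144 and miR-451a come from a single transcript of red cell precursors that is switched on by the transcription factor GATA1. miR-451a is matured by the slicer Argonaute 2 and not by Dicer, so that only one arm of its hairpin yields a product. miR-223 is a miRNA of myeloid cells, the granulocyte and monocyte lineages.

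The mature sequences are shown because the presence or absence of each rests on reads of these strings, and no 2 of the 6 share a seed. RefSeq entries (GRCm38.p6, the assembly of mm10) matched all 6, given here 5′ to 3′ with the seed, bases 2 to 8, in capitals.
mmu-miR-142a-5p: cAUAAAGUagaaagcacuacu
mmu-miR-142a-3p: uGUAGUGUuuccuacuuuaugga
mmu-miR-144-5p: gGAUAUCAucauauacuguaagu
mmu-miR-144-3p: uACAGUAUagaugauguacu
mmu-miR-451a: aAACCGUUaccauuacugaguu
mmu-miR-223-3p: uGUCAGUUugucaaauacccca
None of the seeds occurred in another miRNA of the table that had a RefSeq sequence, so none of the 6 belongs to a larger seed family here.

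Hairpins are shown for Mir142, whose arms are compared in the results, and for Mir451a, which yields a product from 1 arm, with the mature products in capitals.
Mir142: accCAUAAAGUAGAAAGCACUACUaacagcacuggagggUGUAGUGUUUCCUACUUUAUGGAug
Mir451a: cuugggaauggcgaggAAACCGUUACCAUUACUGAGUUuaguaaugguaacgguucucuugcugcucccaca
Mir142 lies on the plus strand of chromosome 11 (GRCm38, chr11:87756864-87756927), in an intron of the long non-coding RNA Mir142hg of the same strand. The entry miR-142b comes from the opposite strand there, and the reverse complement of its 20 bases lies within miR-142a-3p. Mir144 (chr11:78073005-78073070) and Mir451a (chr11:78073170-78073241) lie 99 bases apart on the plus strand, next to the gene Eral1. Mir223 (chrX:96242817-96242926, plus strand) lies in an exon of the non-coding gene F630028O10Rik, on the same strand.

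Each deposited value is the number of reads of a mature miRNA after scaling by a library's own factor. Low values were whole multiples of 1 number per library, so that whole reads could be recovered. The libraries held 56377 to 129486 miRNA reads for D3 ESCs, 1008438 to 1060306 for D3 embryoid bodies, 547213 to 743039 for D3 outgrowths, 141823 to 256613 for B8 embryoid bodies and 138397 to 275271 for B8 ESCs. The deposited factors carry a shift common to most miRNAs. The median log2 change over the 521 tested miRNAs was 2.25 for D3 embryoid bodies against ESCs, 1.69 for D3 outgrowths against ESCs, −0.60 for D3 outgrowths against embryoid bodies and −0.21 for B8 at day 7 against day 0. Changes are therefore also given on a scale set by median-of-ratios factors (the relative scale). That scale does not centre every comparison on the median miRNA, whose log2 change there was 0.27 for D3 embryoid bodies against ESCs, 0.41 for D3 outgrowths against ESCs, 0.37 between the lines at day 7 and 0.49 for the interaction of line and day. As a check of the labels, the 3p arms of the ESC-specific miR-290 cluster (7 entries) took 12.6% to 15.1% of the miRNA signal in D3 at day 0, 0.389% to 0.411% at day 7 and 0.538% to 0.578% at day 21. They took 1.97% to 5.10% in B8 at day 7, against 15.7% to 17.2% in B8 at day 0.

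A value was held to stand above background where a library had more than 3 reads, and a group where its mean exceeded the value of 3 reads averaged over its libraries. This floor was 1.89 for D3 ESCs, 2.25 for D3 embryoid bodies, 1.02 for D3 outgrowths, 2.72 for B8 embryoid bodies and 2.01 for B8 ESCs. PCR copies are not independent molecules, so the floor reflects counting error alone. By this measure miR-142a-5p stood above the floor in all 5 groups, although in D3 at day 7 its mean of 2.28 was close to it. In RPM the mean of that group, 2.88, was just under the 2.90 of 3 reads. Of its 2 libraries, 1 had more than 3 reads. miR-142a-3p did so in B8 at day 0 alone, and miR-223-3p in D3 at day 21 alone. miR-144-5p, miR-144-3p and miR-451a were at or below the floor in every group. In libraries, more than 3 reads were found in 13 of 14 for miR-142a-5p, 5 for miR-142a-3p, 3 for miR-223-3p, 1 for miR-144-5p and 0 for miR-144-3p and miR-451a.

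**Figure D1:**
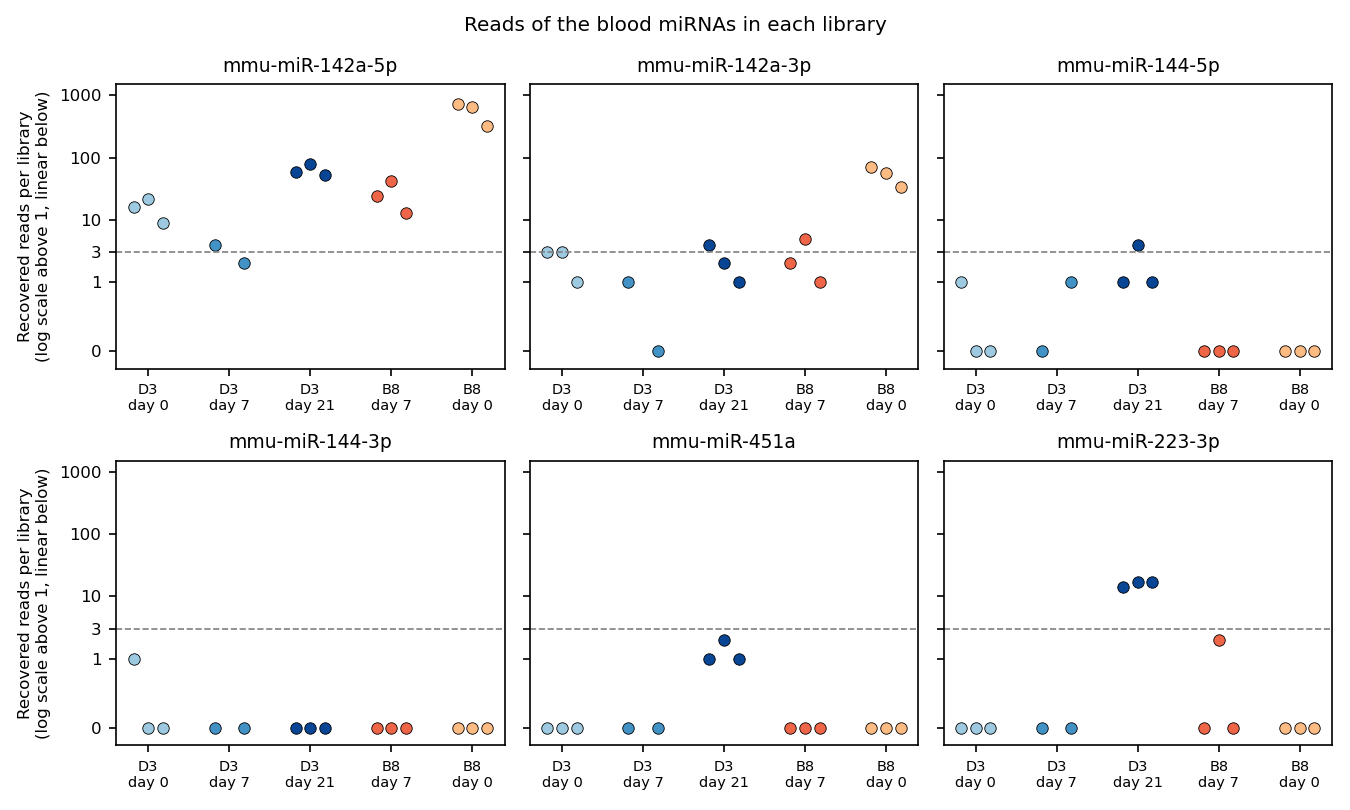
Recovered reads of the 6 blood miRNAs in each of the 14 libraries, on a vertical axis that is logarithmic above 1 and linear below, with a dashed line at 3 reads. Each point is 1 library. miR-142a-5p and miR-142a-3p are highest in B8 at day 0, miR-223-3p is above the line in the 3 libraries of D3 at day 21, and miR-144-3p and miR-451a never cross it.

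The red cell miRNAs were close to absent. miR-451a, among the most abundant miRNAs of mature red cells, had 1, 2 and 1 reads in the 3 libraries of D3 at day 21 and 0 in the other 11 libraries. Those 4 reads correspond to 1.98 ± 0.655 reads per 1000000 miRNA reads (RPM; SD, n = 3), under the 4.58 that 3 reads would give there. miR-144-3p had 1 read in all, in the first library of D3 at day 0. miR-144-5p, the other arm of that hairpin, had 8 reads, of which 1, 4 and 1 were in D3 at day 21, 1 in the first library of D3 at day 0 and 1 in the replicate 3 library of D3 at day 7. In B8 no read of any of these 3 was found at day 7 or at day 0. Averaged over single libraries, 3 reads amount to 33.7 RPM for D3 ESCs and 2.90 for D3 embryoid bodies. They amount to 15.2 for B8 embryoid bodies and 14.8 for B8 ESCs. These are limits for a count of 0 in 1 library. A count of 0 in all libraries of a group sets a lower limit, which was not computed. The day 7 libraries of D3 set the tightest limit because they are the deepest. No fold change is given for these entries, since all groups lay at or under the floor.

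miR-223-3p was seen in the D3 outgrowths. Its deposited values at day 21 were 4.65, 5.01 and 6.76, from 14, 17 and 17 reads, and it had 0 reads in all 3 D3 libraries of day 0 and in both of day 7. In B8 it had 0, 2 and 0 reads at day 7, and 0 in each library of day 0. The outgrowths thus stood apart from every other library. Against the floor, miR-223-3p in D3 at day 21 (5.47 ± 1.13, SD, n = 3) was at least 2.90-fold higher than at day 0 and at least 2.43-fold higher than at day 7 on the deposited scale. As a share of miRNA reads it reached 24.1 ± 1.36 RPM at day 21, at least 8.31-fold above the floor of day 7. The day 0 libraries of D3 are shallow: 3 reads amount to 24.7, 23.2 and 53.2 RPM there (mean 33.7), near or above that share. In the same libraries miR-142a-3p, at 21.9 RPM, gave 3, 3 and 1 reads. A share of about that size was thus seen there as a few reads, while miR-223-3p had 0. The limma test called the entry higher at day 21 against day 0 (adjusted p = 9.6e-06) and against day 7 (adjusted p = 0.00019), and edgeR on recovered reads with TMM did too (adjusted p = 0.0025 and 0.00011). These calls treat a 0 as a measured value whatever the depth. miR-223-3p was tested at all through the one group where it is high, with a mean over libraries of 5.73 per 1000000 of the column total where 5 was required, so that it had to differ.

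miR-142a-5p was the member with the most reads, 2017 in all, and most of them came from undifferentiated B8 cells. In D3 at day 0 its deposited values were 8.28, 11.9 and 7.50, from 16, 22 and 9 reads. They were 3.13 and 1.43, from 4 and 2 reads, for D3 embryoid bodies, and 19.6, 23.6 and 20.7, from 59, 80 and 52 reads, for D3 outgrowths. In B8 they were 18.8, 23.5 and 17.8, from 24, 42 and 13 reads, at day 7, against 399.6, 384.1 and 276.5, from 718, 656 and 320 reads, at day 0. The B8 ESC libraries lay above all others, and the D3 libraries of day 7 lay below all others. On the deposited scale the order of group means was B8 day 0, D3 day 21, B8 day 7, D3 day 0 and D3 day 7. The ranges of D3 at day 21 and B8 at day 7 overlapped. The order changes in RPM, where D3 ESCs had 154 ± 19.7, D3 embryoid bodies 2.88 ± 1.27 (n = 2), D3 outgrowths 96.2 ± 19.95, B8 embryoid bodies 119 ± 38.9 and B8 ESCs 2507 ± 169 (SD, n = 3 otherwise). On that scale the range of B8 at day 7 overlapped with those of D3 ESCs and D3 outgrowths.

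miR-142a-3p, the other arm of the same hairpin, was also highest in undifferentiated B8 cells. Its deposited values were 1.55, 1.62 and 0.833, from 3, 3 and 1 reads, in D3 at day 0, 0.783 and 0, from 1 and 0 reads, at day 7, and 1.33, 0.590 and 0.398, from 4, 2 and 1 reads, at day 21. In B8 they were 1.57, 2.80 and 1.37, from 2, 5 and 1 reads, at day 7, against 39.5, 32.8 and 29.4, from 71, 56 and 34 reads, at day 0. All libraries other than those of B8 at day 0 thus had at most 5 reads. miR-142b, which is antisense to this arm, had 1 read in all, in the second library of B8 at day 0. The notes do not state how strand was used in counting, so reads of this pair cannot be told apart with certainty.

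**Figure D2:**
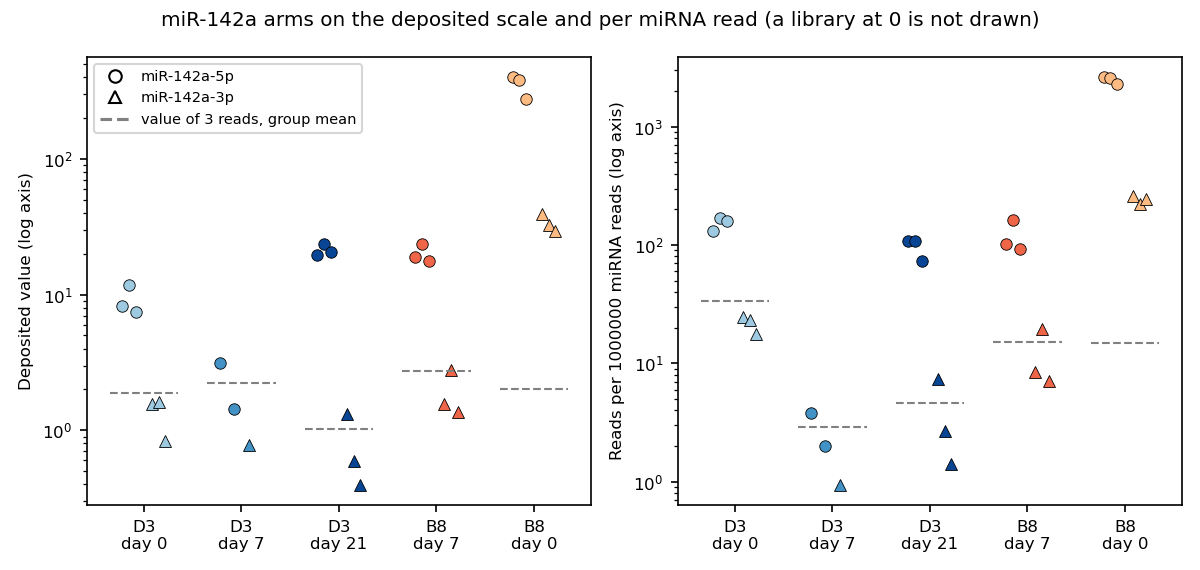
miR-142a-5p (circles) and miR-142a-3p (triangles) in each library, as deposited values on the left and as reads per 1000000 miRNA reads on the right, both on log axes, with the group mean of the value of 3 reads dashed. B8 at day 0 is highest on both scales, while D3 at day 21 lies above D3 at day 0 for miR-142a-5p on the left and below it on the right.

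The first question was how these miRNAs changed as B8 ESCs formed embryoid bodies. Both arms of miR-142a fell. miR-142a-5p averaged 20.05 ± 3.02 at day 7 and 353.4 ± 67.0 at day 0 (SD, n = 3 each), 17.6-fold lower (log2 change −4.10 ± 0.31 SE, limma adjusted p = 7.9e-11; relative log2 change −3.87 ± 0.26). miR-142a-3p averaged 1.91 ± 0.772, under the floor, at day 7 and 33.9 ± 5.16 at day 0, at least 12.5-fold lower when day 7 is set at its floor (log2 −3.88 ± 0.51, limma adjusted p = 5.9e-07; relative −3.70 ± 0.45). The libraries of the days did not overlap for either arm. Of the 3 members tested, 2 fell, where 28% of all 521 miRNAs were lower and 21.9% higher (relative scale: 25.9% and 26.9%). These 2 are the arms of 1 hairpin, and miR-223-3p, with 0 reads at day 0, could not fall. The median log2 change over all miRNAs was −0.21. In bulk samples fewer cells of a type and less RNA per cell cannot be told apart. Of the 6 tested 3p arms of the miR-290 cluster, 5 fell in the same comparison, and their part in the change of miR-142a was not tested.

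In D3 the same interval brought a fall of miR-142a-5p whose size depended on the scale. It averaged 2.28 ± 1.20 at day 7 (n = 2) and 9.21 ± 2.32 at day 0 (n = 3), 4.04-fold lower as deposited (log2 −1.86 ± 0.35 SE, limma adjusted p = 4.2e-05). On the relative scale the log2 change was −3.79 ± 0.29 (limma adjusted p = 4.9e-09). In RPM it was 53.4-fold lower, a ratio that uses a day 7 mean of 2.88, just under the 2.90 that 3 reads give there. The day 7 value rests on 6 reads in all, against 47 at day 0, and the libraries did not overlap. Of the 3 members tested 1 fell and none rose, where 6.91% of all miRNAs fell and 70.4% rose as deposited. The 3 include miR-223-3p, which had 0 reads on both days, so no change could be seen for it. On the relative scale 2 fell, where 27.1% of all fell and 36.1% rose. The second of these was miR-142a-3p (limma adjusted p = 0.00064, and 0.059 as deposited), which lay under the floor on both days.

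At day 21 in D3 miR-142a-5p was above its day 7 level on every scale used, while its relation to day 0 depended on the scale. It averaged 21.3 ± 2.07 at day 21 (n = 3) and 2.28 ± 1.20 at day 7 (n = 2), 9.33-fold higher (log2 3.05 ± 0.35, limma adjusted p = 4.5e-07; relative log2 3.46 ± 0.29). Against day 0 it was 2.31-fold higher as deposited (log2 1.19 ± 0.31, limma adjusted p = 0.0015). On the relative scale it was not past the threshold, with a log2 change of −0.33 and a 95% interval of −0.88 to 0.23 (limma adjusted p = 0.29). Minus the change of the median miRNA, the log2 change was −0.50 from deposited values and −0.74 from relative ones, both without a test. With equal column totals the log2 change was −0.68 (limma adjusted p = 0.044). miR-142a-3p lay under the floor at each of the 3 stages. Against day 7, 8.06% of all miRNAs were higher and 31.5% lower (relative scale: 16.5% and 10.6%). Against day 0, 65.3% of all miRNAs were higher and 10.2% lower, so the call of miR-142a-5p as deposited is like that of most miRNAs. On the relative scale, where 38.2% of all were higher and 25.5% lower, miR-142a-3p was called lower (limma adjusted p = 0.0039) with both days under the floor. The calls of miR-223-3p are not read against these shares, since it passed the filter through day 21 alone.

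The lines were then compared at matched days. Undifferentiated D3 cells had far less miR-142a than B8 cells. miR-142a-5p averaged 9.21 ± 2.32 in D3 and 353.4 ± 67.0 in B8 at day 0 (SD, n = 3 each), 38.4-fold lower in D3 (log2 −5.20 ± 0.31, limma adjusted p = 7.4e-13; relative −4.18 ± 0.26). In RPM the difference was 16.3-fold. miR-142a-3p averaged 1.33 ± 0.435 in D3, under the floor, and 33.9 ± 5.16 in B8 (log2 −4.26 ± 0.51, limma adjusted p = 2e-07; relative −3.44 ± 0.45). Of the 3 members tested 2 were lower in D3, where 46.1% of all miRNAs were lower and 0.96% higher as deposited, and 15.9% lower and 7.68% higher on the relative scale. The 3 include miR-223-3p, which had 0 reads in both lines at day 0. At day 7 miR-142a-5p averaged 2.28 ± 1.20 in D3 (n = 2) and 20.05 ± 3.02 in B8 (n = 3), 8.79-fold lower (log2 −2.96 ± 0.35, limma adjusted p = 1.4e-07; relative −4.10 ± 0.29). This ran against the median miRNA, which was 1.71 higher in D3 on the log2 scale. At that day 2 of 3 members were lower in D3, where 9.21% of all miRNAs were lower and 66% higher (16.7% and 24.8% on the relative scale). The second, miR-142a-3p (limma adjusted p = 0.015), was under the floor in both lines and lost its call under edgeR with the deposited scaling.

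An interaction term asked whether this first step of differentiation changed the miRNAs differently in D3 and B8. On the deposited scale the fall of miR-142a-5p was smaller in D3 than in B8, by a log2 difference of 2.24 ± 0.47 SE (limma adjusted p = 0.00017). For miR-142a-3p the change in D3 minus that in B8 was 2.69 ± 0.76 (limma adjusted p = 0.0029), with both D3 groups under the floor. Of all miRNAs 71.8% were called in that direction and 2.5% in the other (20.7% and 12.5% on the relative scale), and the median difference was 2.64. On the relative scale 0 of the 3 members was called by limma, and none had an unadjusted p under 0.05. For miR-142a-5p the relative difference was 0.09 with a 95% interval of −0.74 to 0.92. DESeq2 and edgeR with TMM also called 0 of 3. With the deposited scaling edgeR called 1 of 3, miR-142a-5p.

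**Figure D3:**
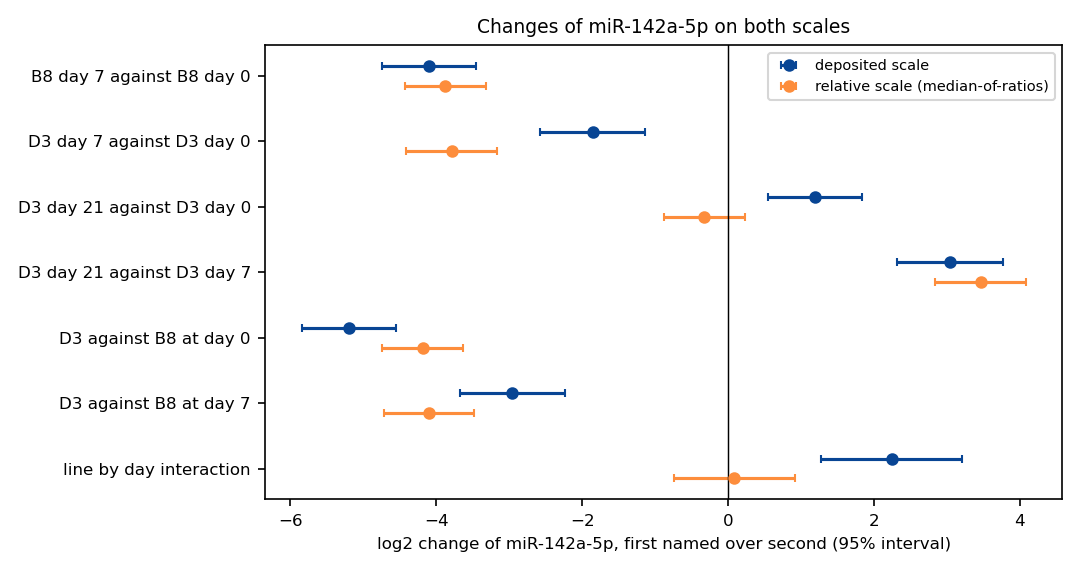
log2 change of miR-142a-5p in the 7 comparisons, first named group over second (for the interaction, the day 7 against day 0 change of D3 minus that of B8), with 95% intervals, on the deposited scale (blue) and on the relative scale (orange). The sign is the same on both scales except for D3 at day 21 against day 0, and the interaction is 2.24 as deposited and 0.09 on the relative scale.

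The ratio of the arms does not depend on how a library is scaled. The 5p arm held more reads than the 3p arm in all 14 libraries. The log2 ratio of 5p to 3p reads, with 0.5 added to each, was 2.24, 2.68 and 2.66 in D3 at day 0, 1.58 and 2.32 for D3 embryoid bodies, and 3.72, 5.01 and 5.13 for D3 outgrowths. In B8 it was 3.29, 2.95 and 3.17 at day 7, against 3.33, 3.54 and 3.22 at day 0. The B8 days overlapped in this ratio, with means of 3.14 ± 0.174 at day 7 and 3.36 ± 0.164 at day 0. In D3 the outgrowths had the highest ratios of all libraries and lay above D3 at day 0 without overlap. The D3 libraries of day 7 are compared with no other group: with 4 and 2 reads of the 5p arm their ratio could not exceed 3.17 and 2.32 even at 0 reads of the 3p arm, which is below all D3 outgrowths. At day 0 this ceiling was 4.25 to 5.49 in D3, which reaches into the range of the outgrowths. D3 at day 21 averaged 4.62 ± 0.778, higher than day 0 by 2.09 on the log2 scale (exact permutation test, 2-sided, p = 0.1). D3 was below B8 at day 0 by 0.83 (exact permutation test, 2-sided, p = 0.1). Adjusted over all 6 comparisons computed, the smallest p was 0.15, and 0.1 is the smallest p that 3 samples against 3, or 2 against 3, allow. In D3 the 3p arm had 0 to 4 reads per library, so single reads move these ratios.

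**Figure D4:**
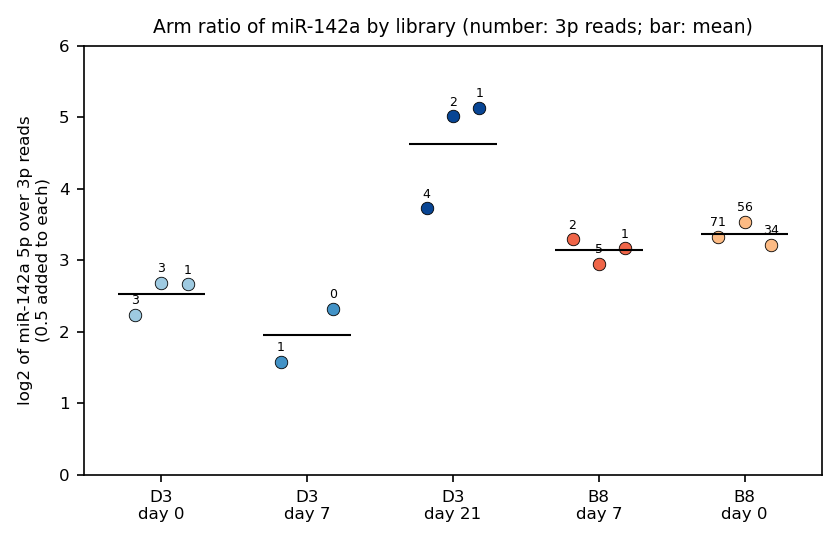
log2 ratio of 5p to 3p reads of miR-142a in each library, with 0.5 added to each arm. Points are libraries, bars group means and the numbers the 3p reads behind each point. D3 at day 21 averages 4.62 and B8 at day 0 averages 3.36.

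The likeness of profiles was measured over the 5 groups as the root mean square difference of centred log2 means on the relative scale. It was measured against the 518 other tested miRNAs outside the members. For miR-142a-5p the closest were miR-291b-5p (1.49), miR-141-3p (1.56) and miR-182-5p (1.61). The value between the arms was 0.94, closer than any of these for the 5p arm, while the 3p arm had miR-291b-5p closer. For miR-142a-3p they were miR-291b-5p (0.91), miR-18b-3p (0.97) and miR-290a-5p (1.02). For miR-223-3p they were let-7b-3p (0.35), miR-215-5p (0.44) and miR-122-5p (0.46), which like it were highest in D3 at day 21, at deposited means of 9.79, 15.6 and 18.6. Between miR-223-3p and miR-142a-5p the difference was 2.89.

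Other miRNAs known from blood cells or endothelium were followed as a list of 16 entries, of which 10 were tested. The 6 not tested had at most 2 reads in any library. In D3 at day 7 against day 0, 8 of 10 rose and 2 fell as deposited (7 and 2 on the relative scale), and at day 21 against day 0 the counts were the same on both scales. Of all 521 miRNAs 70.4% were higher at day 7 and 65.3% at day 21 as deposited (36.1% and 38.2% on the relative scale), so the deposited counts of entries that rose lie near the background. Lower were 6.91% at day 7 and 10.2% at day 21 as deposited (27.1% and 25.5% on the relative scale). The 2 that fell were the arms of miR-150. In D3 at day 21 against day 7, 1 rose and 3 fell (1 and 0 relative), where 8.06% and 31.5% of all did (16.5% and 10.6% relative). In B8 at day 7 against day 0, 2 rose and 2 fell (3 and 3 relative), where 21.9% and 28% of all did (26.9% and 25.9% relative). Between the lines 0 were higher and 5 lower in D3 at day 0 (1 and 2 relative). Of all miRNAs 0.96% were higher and 46.1% lower there (7.68% and 15.9% relative). At day 7, 7 were higher and 1 lower in D3 (5 and 1 relative), where 66% of all were higher and 9.21% lower (24.8% and 16.7% relative).

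miR-150-5p, a miRNA of mature lymphocytes, fell in both lines. Its deposited values were 34.7, 34.0 and 28.3 in D3 at day 0, 0.783 and 1.43 at day 7 and 0.996, 0.590 and 0 at day 21. In B8 they were 4.70, 4.47 and 2.74 at day 7, against 42.9, 42.7 and 50.98 at day 0. It was highest in undifferentiated cells of both lines. At day 0 the order of the lines turned with the scale. D3 lay below B8 as deposited (log2 difference −0.49, 95% interval −1.37 to 0.39, limma adjusted p = 0.38), and above it in RPM, at 547 ± 58.4 in D3 and 332 ± 82.0 in B8 (relative log2 difference 0.56, limma adjusted p = 0.34). In B8 it fell 11.5-fold (limma adjusted p = 3.4e-07), and in D3 it fell to levels under the floor at both later stages. Its other arm, miR-150-3p, averaged 2.14 ± 0.461 in D3 at day 0, with 0 reads in D3 at day 7, in D3 at day 21 and in B8 at day 7, and 1.13 ± 0.981, under the floor, in B8 at day 0. It was called lower in D3 at day 7 and at day 21 against day 0 (limma adjusted p = 0.0036 and 0.0015). All its reads lay at day 0, 11 in D3 and 5 in B8. It thus passed the filter through day 0 alone, and the calls give no separate support. As deposited, the D3 mean of day 0 was 0.95 times the floor of day 7 and 2.09 times that of day 21. In RPM it was 12.4 and 7.83 times those floors.

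The other 8 tested entries of the list were all called higher in D3 at day 7 and at day 21 against day 0 as deposited, and all but miR-155-5p on the relative scale. miR-126a-5p, the miRNA of endothelial cells from the gene Egfl7, averaged 43.0 ± 12.2 in D3 at day 0, 1279 ± 76.7 at day 7 (n = 2) and 507.5 ± 160.9 at day 21 (relative log2 change of day 21 against day 0 1.98 ± 0.25, limma adjusted p = 1.7e-06). miR-146a-5p, induced by inflammatory signals in myeloid cells, averaged 1.69 ± 0.939, under the floor, at day 0, 90.2 ± 21.2 at day 7 and 184.2 ± 26.6 at day 21 (relative log2 5.14 ± 0.29, limma adjusted p = 4.1e-11). miR-486a-5p, also abundant in red cells, averaged 7.83 ± 2.50, 196 ± 11.8 and 93.9 ± 23.8 in that order. It is nearly identical to miR-486b-5p (0 reads in D3 at day 0, 17.8 ± 6.27 at day 7 and 7.63 ± 2.50 at day 21), so the values of the pair are uncertain one by one. miR-486b-5p passed the filter only through D3 at day 7 and day 21. Its calls against day 0, counted among the 8, thus give no separate support. For D3 at day 21 against day 7 the direction of the means turned with the scale for all of the 8 but miR-146a-5p, which was higher on both. For the rest day 21 was lower as deposited and higher in RPM. In RPM miR-126a-5p averaged 2230 ± 605 at day 21 and 1652 ± 64.7 at day 7. miR-486a-5p averaged 428 ± 141.5 at day 21 and 255 ± 40.5 at day 7, with overlap. On the relative scale their log2 changes were −0.66 for miR-126a-5p and −0.36 for miR-486a-5p, neither past the threshold. miR-126a-3p averaged 16.3 ± 4.58 at day 0, 339.7 ± 67.2 at day 7 and 153.3 ± 52.3 at day 21, and miR-342-3p averaged 3.03 ± 1.32, 46.6 ± 6.14 and 34.8 ± 8.19 in that order. miR-342-5p had 0 reads at day 0 and averaged 9.93 ± 5.18 at day 7 and 4.46 ± 0.520 at day 21. In RPM miR-342-5p averaged 13.2 at day 7 and 20.1 at day 21, and miR-486b-5p 23.4 and 33.0. All lay under the mean of 33.7 RPM that 3 reads give in a D3 library of day 0. Against that floor no rise in share is shown for either. miR-155-5p averaged 2.85 ± 1.08, 21.2 ± 2.35 and 11.7 ± 5.61, and its relative log2 changes against day 0 were 0.63 at day 7 and 0.40 at day 21 (limma adjusted p = 0.16 and 0.32). In the D3 outgrowths, where miR-223-3p appeared, miR-451a had 1 to 2 reads per library, miR-144-3p 0 and miR-144-5p 1, 4 and 1, while miR-126a-5p had 990 to 2172 reads and miR-146a-5p 477 to 619. The part of cell types in these levels was not tested.

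**Figure D5:**
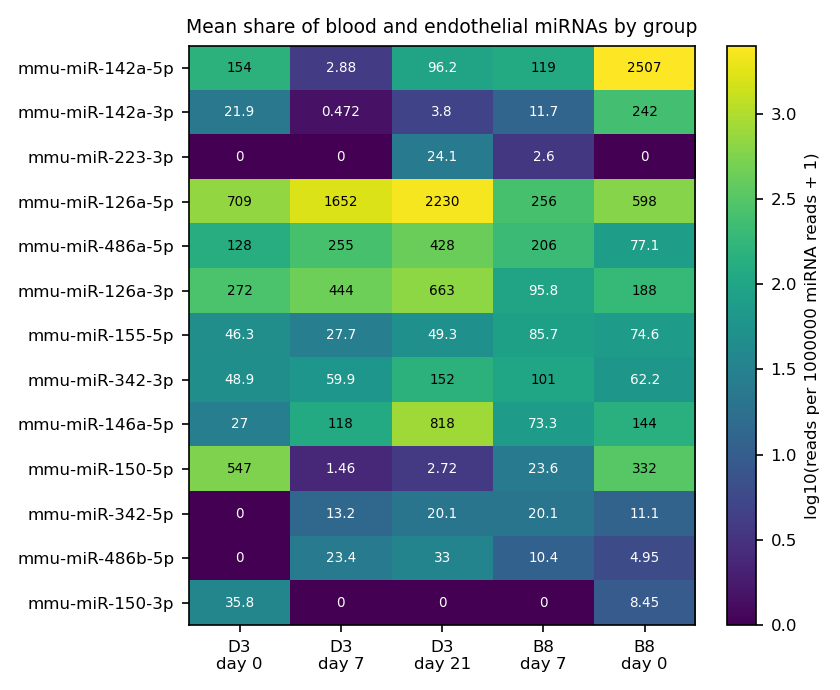
Mean reads per 1000000 miRNA reads in each of the 5 groups for the 3 tested members (top) and the 10 tested entries of the list of other blood and endothelial miRNAs, coloured by log10 of the value plus 1. miR-142a and miR-150 are highest at day 0, and miR-223-3p, miR-126a and miR-146a-5p are highest in D3 at day 21 on this scale.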

How the data were processed

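The table's values are a signal, deposited by the authors after each library's read numbers had been divided by its own scaling factor. Its title names TMM. CASAVA, FastQC, Bowtie, Partek and mm10 are named without versions, per the submitters' processing notes, and cutadapt and a length filter appear in the titles of the columns. Counting of reads that match several miRNAs is not given in the sources used here. In every library 100% of low values (up to 1000 reads) were whole to within 0.01 of a read.

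The test covered the 521 of 1033 miRNAs whose mean share of the column total reached 5 per 1000000. One mean for each of 5 groups was fitted with limma (3.58.1, R 4.3.3; trended prior) to log2(value + 0.48), with 9 residual degrees of freedom. Fold changes of low miRNAs are understated by the pseudocount. Folds in the text are ratios of group means, while log2 changes come from the model. Tests were 2-sided and adjusted by Benjamini-Hochberg over all 521 at a threshold of 0.05. The fit was tested on simulated data. edgeR (4.0.16) and DESeq2 (1.42.0) were run on recovered reads as alternatives. The relative scale, which leaves a median change above 0 in some comparisons, divides values by median-of-ratios factors over 319 miRNAs above 0 in all libraries. Replicate libraries of a group differed by more than sampling noise. All members are named. Other tested entries of the list are named where they passed the threshold or were at 0 in a group, and the nearest 3 profiles of each tested member. The members and lists were chosen with earlier results of these data known. The test designs were laid out for 17 samples, and 14 had values.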

Additional observations from a re-analysis of the deposited data

Results flagged for a closer look

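The change from day 0 to day 7 differed between the lines for both arms of miR-142a on the deposited scale. For miR-142a-5p the change in D3 minus that in B8 was 2.24 on the log2 scale (limma interaction, adjusted p = 0.00017). For miR-142a-3p it was 2.69 (limma adjusted p = 0.0029), with both D3 groups under the value of 3 reads. The median difference over all miRNAs was 2.64, and 71.8% of all were called in that direction. Minus that median the differences were −0.40 for miR-142a-5p and 0.05 for miR-142a-3p, both without a test. Neither arm passed the threshold on the relative scale, where the differences were 0.09 and 1.35 (limma adjusted p = 0.89 and 0.14).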

How the results depend on the processing

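Over the alternatives, which include leaving out each library, miR-142a-5p kept its direction and its call in B8 at day 7 against day 0, in D3 at day 7 against day 0, in D3 at day 21 against day 7 and in D3 against B8 at both days. The same held for miR-142a-3p in B8 and between the lines at day 0. The number of members called moved as follows. For D3 at day 7 against day 0 it was 2 (1 as reported) with a pseudocount of 0.2 per 1000000, median-of-ratios factors, equal column totals, equal totals without the miR-10 pair (miR-10a and miR-10b), a prior without trend, edgeR with TMM and DESeq2, and 1 to 2 on leaving out each library (2 without D3 day 0 replicate 3 or D3 day 7 replicate 2). A filter at 50 per 1000000 removed miR-223-3p and gave 1 in place of 2 for D3 at day 21 against day 0 and against day 7. For D3 against B8 at day 7 it was 1 in place of 2 with a pseudocount of 10 per 1000000, the compared groups alone and edgeR with the deposited scaling, and 1 to 2 on leaving out each library (1 without B8 day 7 replicate 2 or D3 day 7 replicate 3). For the interaction it was 1 in place of 2 with a pseudocount of 0.2 per 1000000 and with edgeR at the deposited scaling, and 0 with median-of-ratios factors, equal column totals, equal totals without the miR-10 pair (miR-10a and miR-10b), edgeR with TMM and DESeq2.

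The log2 change of miR-142a-5p in D3 at day 21 against day 0 turned from 1.19 to −0.68 with equal column totals, −0.33 with median-of-ratios factors, −0.48 with equal totals without the miR-10 pair, −0.36 with edgeR and TMM and −0.32 with DESeq2. Its interaction turned from 2.24 to −0.60, −0.19, −0.47 and −0.45 with equal totals, equal totals without the miR-10 pair, edgeR with TMM and DESeq2. That of miR-142a-3p turned from 2.69 to −0.049 with edgeR and TMM and −0.36 with DESeq2. These settings all replace the deposited factors.

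Over all miRNAs, the calls between the lines at day 0 numbered 113 to 123 under other scalings against 245 as deposited, at day 7 163 to 226 against 392, and for the interaction 159 to 173 against 387. For D3 at day 21 against day 7 they numbered 136 with equal totals without the miR-10 pair and 116 without D3 day 7 replicate 2, against 206. The filter at 50 per 1000000, which leaves fewer miRNAs to test, gave 251, 258 and 261 for D3 at day 7 and at day 21 against day 0 and for D3 against B8 at day 7, against 403, 393 and 392. Replicate numbers did not pair the samples (correlations of same-numbered deviations −0.09 to 0.14), and the fit with a replicate block called 1 member in D3 at day 7 against day 0 and 2 in each other comparison, as without it.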
